A study of Mus musculus with 9 samples.

Results

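The genes described here are 10 interferon-gamma responsive genes of mouse liver: Irf1 and Nlrc5, which encode transcription regulators, 5 immunity-related GTPases (Irgm1, Irgm2, Igtp, Ifi47 and Iigp1) and 3 guanylate-binding proteins (Gbp2, Gbp3 and Gbp7). They were picked by gene symbol, 10 of the 27945 genes with at least 1 read in any library, and all 10 passed the filter on low counts that left 18113 genes for testing. They were picked with the values of the same libraries in view, so that the fold changes and adjusted p-values given for them describe the choice and support nothing further.

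Polyadenylated RNA was sequenced in 9 mouse liver libraries, 3 in each of the groups labelled control, model and treated. By its title, the series is about gefitinib, a drug that blocks the epidermal growth factor receptor, and the injury it causes in liver. The labels name no agent, dose, time, strain, sex, age or genotype for any of the groups, and nothing in them says what the treated group received. They call the material both liver and liver cells, and leave unsaid whether replicates were different mice, so the p-values measure only the spread between these libraries.

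Interferon-gamma, made mainly by T cells and natural killer cells, binds the receptor chains Ifngr1 and Ifngr2 and acts through the kinases Jak1 and Jak2. Early targets such as Irf1 are induced through a palindromic promoter element, GAS, and the Irf1 protein binds a repeat called ISRE in the promoters of many later targets. Among those targets are the immunity-related GTPases (IRG) and the guanylate-binding proteins (GBP), which act on the membranes around intracellular parasites and bacteria, and Nlrc5, a NOD-like receptor family protein that activates MHC class I genes.

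Total counts lay between 56440871 and 60665156 per library. Of the markers of other cells, the summed level of 12 Kupffer cell and macrophage genes was 266 to 425 CPM (counts scaled to library size) in control, 396 to 480 in model and 585 to 884 in treated libraries. That of 7 neutrophil genes was 1.81 to 3.38, 8.65 to 23.3 and 6.0 to 124 CPM, with Ly6g at 0 in control. The sum of 8 endothelial genes was 279 to 331, 109 to 127 and 62.9 to 92.7 CPM, and 6, 4 and 8 of the 8 fell in model versus control, treated versus model and treated versus control. Over all genes tested, 0.596%, 4.44% and 8.47% fell in these comparisons. The sum of 14 T and natural killer cell genes overlapped between groups, at 7.17 to 13.7, 10.8 to 14.0 and 7.47 to 12.8 CPM, and none of the 14 passed the test in any comparison. The sum of 7 skeletal muscle genes was at most 1.06 CPM in control, 154 in model replicate 1 but at most 0.87 in the other model libraries, and 100 to 137 in treated libraries. The summed level of 8 hepatocyte genes was 64531 to 89976 CPM over all libraries. In bulk RNA, fewer cells of a type and less RNA per cell cannot be told apart, and the part of these cells in the results that follow was not tested.

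The levels of the 10 genes stood in different orders across the groups. Nlrc5, Irgm2 and Ifi47 stood higher in every model library than in any control or treated library, and passed the test in both of those comparisons. The treated libraries of Igtp overlapped with the model libraries. Gbp2 and Gbp3 were highest in the treated libraries, and Iigp1 and Irf1 had their lowest means there.

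In model versus control, 3 of the 10 genes rose (Nlrc5, Irgm2 and Ifi47) and 0 fell at an adjusted p under 0.05, in edgeR's quasi-likelihood test over all genes. The same rule called 1.12% of all genes tested, 0.519% higher and 0.596% lower. The median log2 fold change of the 10 genes was 0.42, with a range from -0.24 to 1.07, against -0.00091 for all genes. For 5 of the 10 genes every model library lay above every control library, as for 9.71% of all genes, and for 0 every model library lay below, as for 10.2%. In treated versus model, 3 of the 10 fell (Nlrc5, Irgm2 and Ifi47) and 0 rose, where 9.65% of all genes passed, 4.44% lower and 5.21% higher. The 10 ranged from -0.97 to 1.10 on the log2 scale, with a median of -0.17, against 0.0052 for all genes. The libraries did not overlap for 4 genes that were lower and 2 that were higher, as for 15.0% and 16.2% of all genes. In treated versus control, 2 rose (Igtp and Gbp3) and 1 fell (Iigp1), where 17.8% of all genes passed, 9.36% higher and 8.47% lower. The median was 0.29, with a range from -0.57 to 1.51, against -0.0090 for all genes. The libraries did not overlap for 3 genes that were higher and 2 that were lower, as for 19.3% and 18.0% of all genes. The comparisons share libraries, and the genes were chosen with these contrasts known, so nothing is read from these counts against the shares of all genes.

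**Figure D1:**
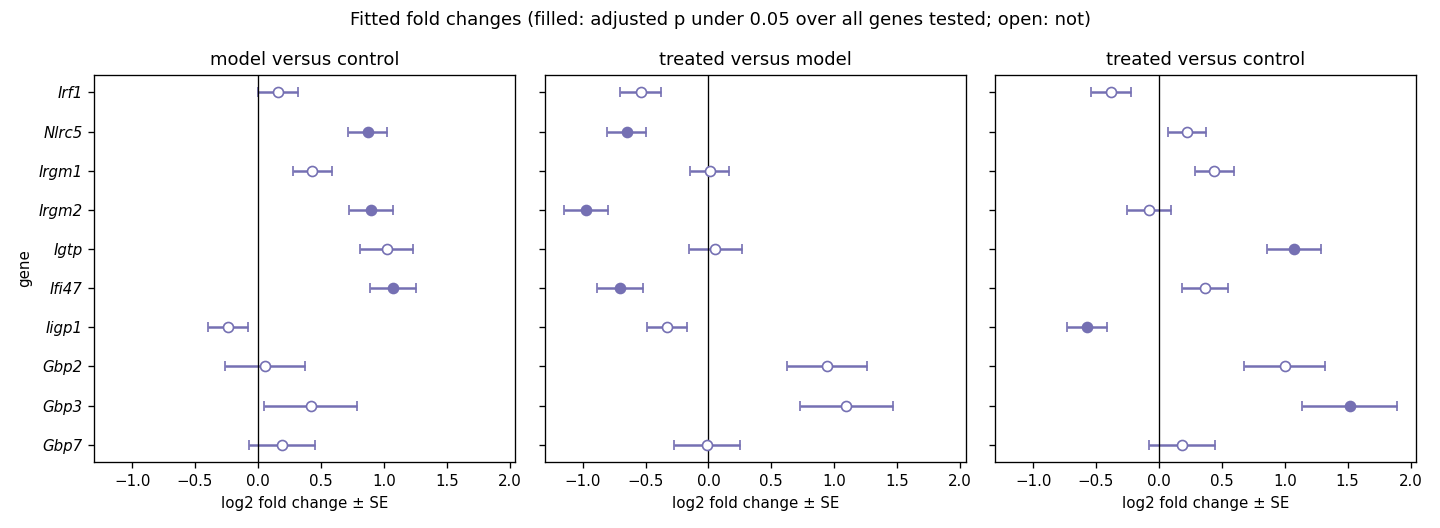
Log2 fold change ± SE (x axis) of each of the 10 genes (y axis) in model versus control, treated versus model and treated versus control, with filled points for an adjusted p under 0.05 over all genes tested and open points for the rest. Nlrc5, Irgm2 and Ifi47 are filled on the right of 0 in the first panel and on the left of 0 in the second, and Igtp and Gbp3 are filled on the right of 0 in the third.

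The promoter sequences are shown because GAS and ISRE elements are what these genes are known to respond through, and they let windows of 1 family be set side by side. RefSeq windows from 250 bases before to 50 bases after the start (build GRCm38.p6) were matched by symbol and are described for 8 of the 10 genes. Irf1 and Gbp3 have 2 windows each and the others 1. Windows on chromosomes 8 and 18, where Nlrc5 and Iigp1 lie, were left out, so these genes are not among the 8. The shares over all genes given below were taken without leaving out any chromosome. The letters GAAANNGAAA, the core of an ISRE, were searched on both strands, and TTCNNNGAA, the GAS palindrome, reads the same on either strand. The ISRE core was found in at least 1 window of 6 of the 8 genes (Irgm1, Irgm2, Igtp, Gbp2, Gbp3 and Gbp7), as for 3.99% of the 27025 genes in the table, whose windows have the same length. The GAS letters were found for 4 of the 8 (Irf1, Irgm2, Igtp and Gbp7), as for 9.55% of all genes in the table. The window of Ifi47 and the second windows of Irf1 and Gbp3 held neither. The 120 bases before the RefSeq start are printed 5′ to 3′ on the gene's own strand, with matches in capitals: TTC to GAA for GAS, and GAAA or TTTC repeats for the ISRE core on the plus or the minus strand of the window.
Irf1 (chr11:53769894-53770013, plus strand): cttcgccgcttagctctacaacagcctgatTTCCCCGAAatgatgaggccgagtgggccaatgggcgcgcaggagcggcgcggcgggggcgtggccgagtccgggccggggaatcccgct
Irgm1 (chr11:48871421-48871540, minus strand): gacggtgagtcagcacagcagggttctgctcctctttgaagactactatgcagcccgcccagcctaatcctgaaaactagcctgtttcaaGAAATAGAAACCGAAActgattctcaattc
Irgm2 (chr11:58214857-58214976, plus strand): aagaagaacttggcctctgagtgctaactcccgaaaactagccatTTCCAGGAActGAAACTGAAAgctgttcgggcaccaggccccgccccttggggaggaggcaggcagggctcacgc
Igtp (chr11:58199436-58199555, plus strand): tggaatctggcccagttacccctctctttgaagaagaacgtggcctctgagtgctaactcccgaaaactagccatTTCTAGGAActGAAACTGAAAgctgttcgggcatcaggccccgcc
Gbp2 (chr3:142620543-142620662, plus strand): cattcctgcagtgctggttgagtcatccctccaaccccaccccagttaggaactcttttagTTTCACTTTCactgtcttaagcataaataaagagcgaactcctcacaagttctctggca
Gbp3 (chr3:142559924-142560043, plus strand): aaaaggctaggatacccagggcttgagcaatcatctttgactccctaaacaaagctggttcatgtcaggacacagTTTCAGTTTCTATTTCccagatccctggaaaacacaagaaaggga
Gbp7 (chr3:142530216-142530335, plus strand): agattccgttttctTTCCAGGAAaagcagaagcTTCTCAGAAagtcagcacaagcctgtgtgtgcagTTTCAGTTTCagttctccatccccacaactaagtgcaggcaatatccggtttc

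The printed windows of Irgm1 and Gbp3 hold 2 overlapping ISRE cores each, which together spell the triple repeat GAAANNGAAANNGAAA, present for 0.133% of all genes in the table. Igtp and Irgm2, neighbours on chromosome 11, have similar windows. With an offset of 30 bases, 184 of 270 aligned bases were identical (68.1%), the longest identical run was 61 bases, and both carry a GAS match just before an ISRE core. A match of letters is a description of the window and not a binding site.

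Irf1 (11:53770014-53777323, plus strand, GRCm38) encodes the factor that binds the ISRE and is itself an early target of interferon-gamma. Its level was 40.7, 35.8 and 41.8 CPM in the control libraries, 53.9, 34.6 and 43.5 CPM in the model libraries and 34.1, 30.9 and 25.9 CPM in the treated libraries. The model libraries straddled the control libraries, and every treated library lay below every library of the other groups. The log2 fold change was 0.16 in model versus control (SE 0.16, adjusted p = 0.745), -0.54 in treated versus model (SE 0.16, adjusted p = 0.0586) and -0.38 in treated versus control (SE 0.16, adjusted p = 0.128), and none passed the edgeR test. The second of these passed under 3 of 18 alternative settings, among them the fit without model replicate 2. An antisense gene, Gm17334, overlaps 907 bases of Irf1 and had 60 to 194 counts per library; without a stated strand setting their reads cannot be told apart there. A pair of Irf1 transcripts of 10 exons with different starts carried most of the estimate, the longer with 60.2%, 76.6% and 93.0% and the shorter with 37.2%, 20.1% and 5.49% of the summed transcript FPKM in control, model and treated groups. The longer ranged from 3.42 to 15.4 FPKM within the control group alone.

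Nlrc5 (8:94434356-94527272, plus strand) stood at 14.9, 18.3 and 18.4 CPM in control, 28.5, 32.3 and 33.7 CPM in model and 15.7, 21.7 and 22.8 CPM in treated libraries. All 3 model libraries were above all 6 others, and treated libraries overlapped with control. Nlrc5 rose 1.83-fold in model versus control (log2 0.87, SE 0.15, adjusted p = 0.0275 in edgeR) and fell by 0.65 on the log2 scale in treated versus model (SE 0.15, adjusted p = 0.0246). Treated and control libraries were 0.22 apart (SE 0.15, adjusted p = 0.366). The first call was lost when any 1 control replicate, model replicate 2 or model replicate 3 was left out, and the adjusted p over the alternatives reached 0.100. The second was lost without model replicate 2 or 3 or treated replicate 1, with an adjusted p of up to 0.0850. The antisense gene 9330175E14Rik shares 748 bases with the Nlrc5 span and had 172 to 344 counts per library.

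Nlrc5 is known to activate MHC class I genes. Of 10 such genes none passed the test in model versus control or in treated versus model, and 4 rose in treated versus control. In the last comparison 9.36% of all genes tested rose. Tapbp, which loads peptide onto class I molecules, was at 54.2 ± 6.23 CPM in control, 69.2 ± 11.8 in model and 96.5 ± 13.1 in treated libraries (SD, n = 3), a log2 difference of 0.83 between treated and control (SE 0.15, adjusted p = 0.00328 in edgeR). H2-D1, a classical class I heavy chain, and H2-Q4 were higher by 0.87 (SE 0.24, adjusted p = 0.0315) and 0.80 (SE 0.21, adjusted p = 0.0280). B2m, the class I light chain, was higher by 0.38 (SE 0.12, adjusted p = 0.0470). H2-T23, another of the 10, had a lower mean in treated than in control libraries and passed in no comparison. It was at 141, 109 and 21.8 CPM in control, 22.5, 22.4 and 16.7 in model and 23.2, 17.3 and 26.2 in treated libraries. H2-K1 ran from 145 to 549 CPM within the control group. The median log2 fold change of the 10 genes was 0.11, 0.45 and 0.45 in model versus control, treated versus model and treated versus control.

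**Figure D2:**
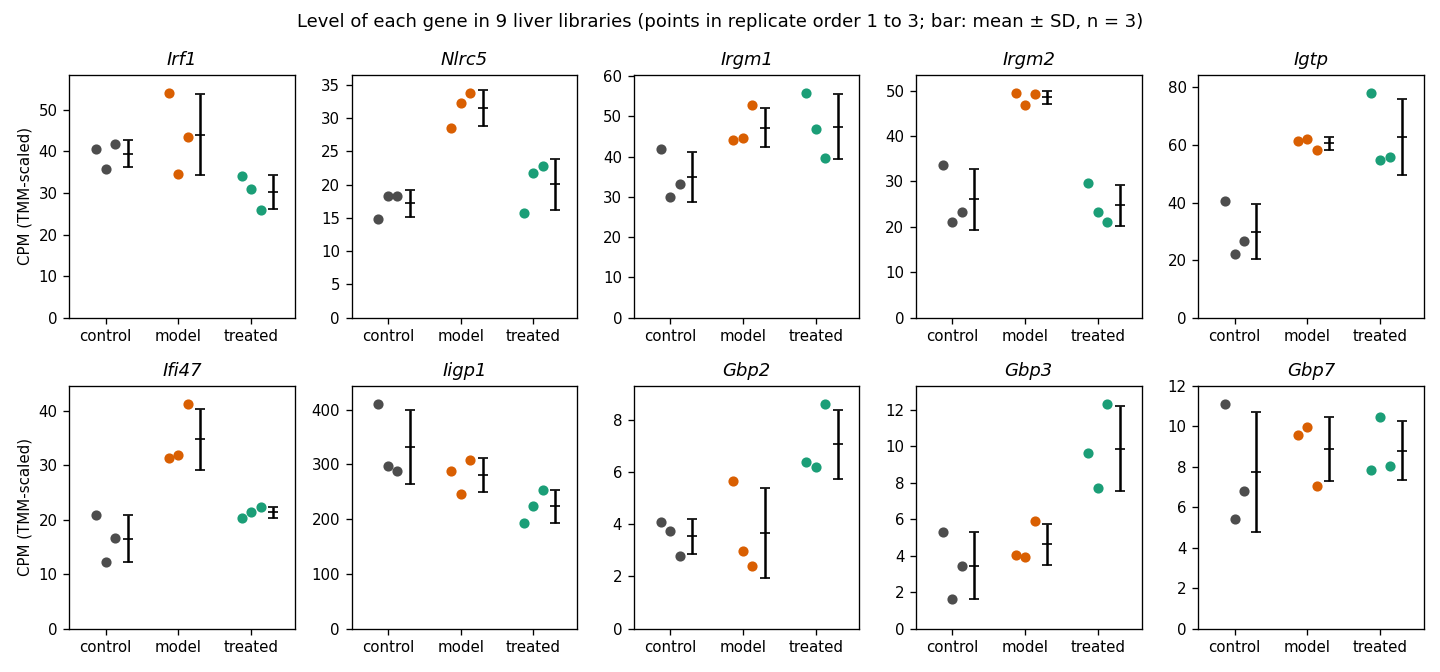
Level of each of the 10 genes in CPM (y axis, from 0) in the control, model and treated groups (x axis), with 1 point per library in the order of replicates 1 to 3 and a bar for the mean ± SD (n = 3). The model points of Nlrc5, Irgm2 and Ifi47 lie above all others, and the treated points of Gbp2 and Gbp3 lie above all others.

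Irgm1, Irgm2 and Igtp are IRG proteins of the GMS class, which sit on the cell's own membranes and keep the other IRG proteins inactive there. Irgm1 (11:48861968-48871683, minus strand) was at 41.9, 29.98 and 33.1 CPM in control, 44.1, 44.8 and 52.8 CPM in model and 55.7, 47.0 and 39.8 CPM in treated libraries. Every model library was above every control library, and the treated libraries overlapped with both groups. Its log2 fold change was 0.43 in model versus control (SE 0.15, adjusted p = 0.232), 0.01 in treated versus model (SE 0.15, adjusted p = 0.984) and 0.44 in treated versus control (SE 0.15, adjusted p = 0.0715), none past the edgeR threshold. The last passed under 4 of the 18 alternatives, among them the fits without control replicate 1 and without treated replicate 3.

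Irgm2 (11:58199618-58222782, plus strand) was at 33.6, 21.2 and 23.4 CPM in control, 49.4, 46.9 and 49.2 CPM in model and 29.7, 23.4 and 21.1 CPM in treated libraries. The model libraries lay within a narrow range above all others, and the control and treated libraries overlapped. Irgm2 rose 1.86-fold in model versus control (log2 0.90, SE 0.18, adjusted p = 0.0392 in edgeR) and fell by 0.97 on the log2 scale in treated versus model (SE 0.18, adjusted p = 0.00696). Treated versus control gave -0.08 (SE 0.17, adjusted p = 0.821), a direction that turned with library totals alone as the scaling, at 0.13. The rise was lost under library totals alone, and without control replicate 2 or 3, any of the model replicates or treated replicate 2, with adjusted p-values of up to 0.123 over the alternatives. The fall passed under all 18, with adjusted p-values of up to 0.0300.

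Igtp (11:58199556-58207591, plus strand), also known as Irgm3, was at 40.6, 22.3 and 26.6 CPM in control, 61.3, 62.1 and 58.1 CPM in model and 77.9, 54.7 and 55.8 CPM in treated libraries. All model and all treated libraries were above all control libraries, and model and treated overlapped. Igtp rose 2.11-fold in treated versus control (log2 1.07, SE 0.21, adjusted p = 0.00773 in edgeR), a call kept under all 18 alternatives with adjusted p-values of up to 0.0343. In model versus control the log2 fold change was 1.02 (SE 0.21), with an adjusted p of 0.0581 that missed the threshold and passed under 5 of the 18, among them the fits without control replicate 1 and without treated replicate 1. Its value in treated versus model was 0.05 (SE 0.21, adjusted p = 0.920).

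Igtp and Irgm2 overlap. In the deposited annotation Irgm2 spans 7974 of the bases of Igtp on the same strand, because 1 Irgm2 transcript of 2 exons begins near the start of Igtp. Of its 3470 exonic bases, 162 (4.67%) lie in exons of Igtp. That transcript carried 88.6%, 98.4% and 99.7% of the summed transcript FPKM of Irgm2 in control, model and treated groups. Its level was 5.54 ± 2.45, 11.8 ± 0.476 and 6.89 ± 1.47 FPKM (SD, n = 3). So the Irgm2 window printed above, at the start RefSeq gives, lies well inside the span of the transcript that carried the estimate. When the counts of both genes were summed, a choice made after seeing the data, the level was 74.2, 43.4 and 49.9 CPM in control, 111, 109 and 107 CPM in model and 108, 78.1 and 76.9 CPM in treated libraries. The sum rose by 0.97 on the log2 scale in model versus control (SE 0.19, adjusted p = 0.0470 in edgeR) and by 0.65 in treated versus control (SE 0.19, adjusted p = 0.0427). Between treated and model it gave -0.32 (SE 0.19, adjusted p = 0.357). The sum adds the more abundant Igtp to Irgm2, so it gives the level of both together and does not test how reads were divided.

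**Figure D3:**
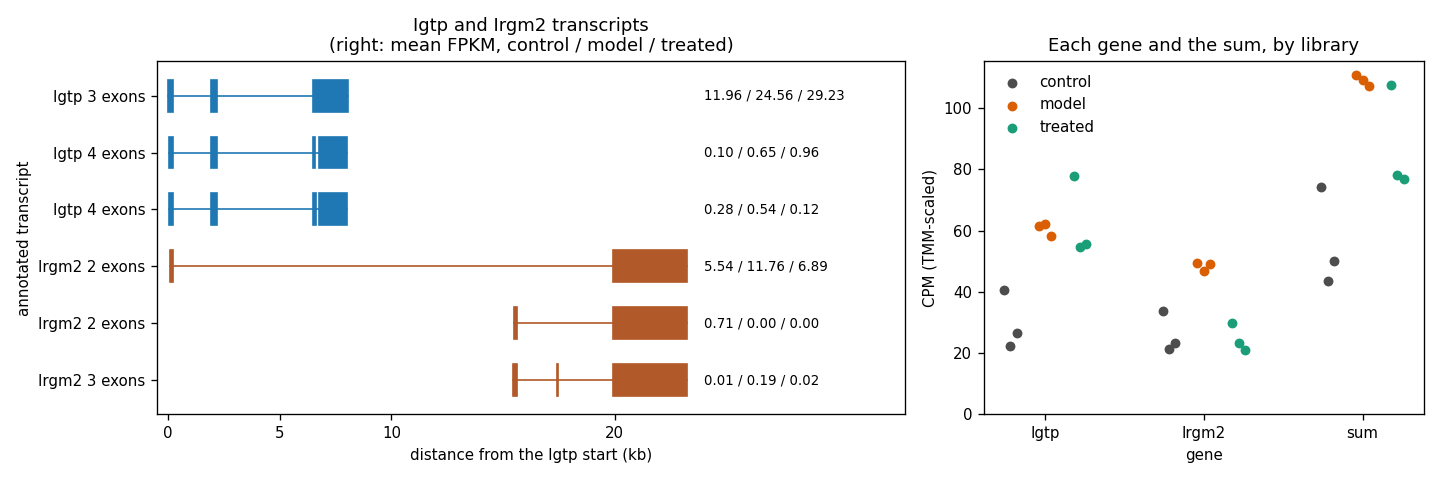
Left, annotated transcripts of Igtp and Irgm2 by distance from the Igtp start in kb (x axis), with exons as boxes and the mean FPKM in control, model and treated groups beside each. Right, CPM (y axis) of Igtp, Irgm2 and their sum in each of the 9 libraries (x axis), where the sum in the model libraries lies between 107 and 111 CPM.

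Ifi47 and Iigp1 are IRG proteins of the GKS class, the effectors that load onto the membrane around a parasite. Ifi47 (11:49076587-49096974, plus strand) was at 20.8, 12.2 and 16.6 CPM in control, 31.3, 31.8 and 41.2 CPM in model and 20.3, 21.3 and 22.4 CPM in treated libraries. Model libraries were above all others, and the lowest treated library was below the highest control library. Ifi47 rose 2.10-fold in model versus control (log2 1.07, SE 0.18, adjusted p = 0.0219 in edgeR) and fell by 0.70 on the log2 scale in treated versus model (SE 0.18, adjusted p = 0.0340). Treated versus control gave 0.37 (SE 0.18, adjusted p = 0.193). The rise was lost without control replicate 3 or model replicate 2 or 3 (adjusted p up to 0.0863 over the alternatives). The fall was lost under library totals alone and without any 1 of the 6 libraries compared (up to 0.126).

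More than 1 annotated transcript carried reads of Ifi47. A transcript of 2 exons that starts at position 49087039 held 54.4%, 83.4% and 85.9% of its summed transcript FPKM in control, model and treated groups, and the one at the RefSeq window's start held 13.1%, 5.43% and 5.98%. The span of Ifi47 lies in that of Olfr56, an olfactory receptor gene with at most 22 counts in any library. No test was made on transcript shares.

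Iigp1 (18:60376027-60392634, plus strand), also called Irga6, was the most abundant of the 10. It was at 410 CPM in control replicate 1 and at 297 and 288 CPM in the other control libraries, at 288, 247 and 308 CPM in model and at 193, 224 and 253 CPM in treated libraries. Every treated library was below every control library, and model overlapped with both. Iigp1 fell by 0.57 on the log2 scale in treated versus control (SE 0.16, adjusted p = 0.0318 in edgeR). It gave -0.24 in model versus control (SE 0.16, adjusted p = 0.572) and -0.33 in treated versus model (SE 0.16, adjusted p = 0.238). The call was lost under 6 alternatives, namely library totals alone, the replicate block, the 2 groups fitted alone, and without control replicate 1, treated replicate 1 or treated replicate 2, with adjusted p-values of up to 0.120.

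Gbp2, Gbp3 and Gbp7 encode large GTPases that assemble on pathogens and pathogen vacuoles, and the 3 genes lie near each other on chromosome 3. Gbp2 (3:142620602-142638008, plus strand) was at 4.08, 3.75 and 2.76 CPM in control, 5.64, 2.98 and 2.40 CPM in model and 6.40, 6.19 and 8.59 CPM in treated libraries. All treated libraries were above all others, and model replicate 1 stood above the other model libraries. The log2 fold change was 0.06 in model versus control (SE 0.32, adjusted p = 0.969), 0.94 in treated versus model (SE 0.32, adjusted p = 0.0932) and 1.00 in treated versus control (SE 0.32, adjusted p = 0.0531), none past the edgeR threshold. The last passed under 8 of the 18 alternatives, among them the fits without model replicate 1 or 3, and treated versus model passed under 4, among them the fit without model replicate 1.

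Gbp3 (3:142560026-142573209, plus strand) was at 5.29, 1.62 and 3.43 CPM in control, 4.02, 3.91 and 5.90 CPM in model and 9.61, 7.68 and 12.3 CPM in treated libraries. The treated libraries were again above all others. Gbp3 rose 2.86-fold in treated versus control (log2 1.51, SE 0.38, adjusted p = 0.0193 in edgeR), a call lost without control replicate 3 or treated replicate 3 (adjusted p up to 0.0644 over the alternatives). Model versus control gave 0.42 (SE 0.37, adjusted p = 0.704) and treated versus model 1.10 (SE 0.37, adjusted p = 0.0952), which passed under 3 of the 18, among them the fit without control replicate 2.

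Gbp7 (3:142530342-142550149, plus strand), whose window holds an ISRE core and a pair of GAS matches, was at 11.1, 5.40 and 6.79 CPM in control, 9.60, 9.99 and 7.05 CPM in model and 7.86, 10.5 and 8.06 CPM in treated libraries, and all 3 groups overlapped. The log2 fold changes were 0.19, -0.01 and 0.18 (SE 0.26 in each), with edgeR adjusted p-values of 0.825, 0.985 and 0.701. GBP genes are similar in sequence, and how reads shared between them were counted is not given in the sources used here.

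Levels of different genes were compared per length, as FPKM within a group. Iigp1 was highest in control, at 47.4 ± 11.2 FPKM (SD, n = 3), followed by Igtp at 12.3 ± 4.36 and Irf1 at 8.22 ± 0.886. Below Igtp, Irf1, Irgm2, Ifi47 and Irgm1 overlapped with their neighbours in the order. Nlrc5 followed at 1.67 ± 0.152 FPKM, and Gbp2, Gbp7 and Gbp3, between 0.882 and 1.16 FPKM, overlapped with each other. In the model group Iigp1 was at 41.2 ± 4.22 and Igtp at 25.6 ± 1.28 FPKM. In the treated group Iigp1, at 37.0 ± 3.71, and Igtp, at 30.2 ± 7.36 FPKM, overlapped, and Gbp3 (2.91 ± 0.637) and Gbp2 (2.70 ± 0.442) stood before Nlrc5 (2.27 ± 0.366) in the order, with neighbours overlapping.

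Within the groups the genes differed in which library was high. Control replicate 1 was the highest control library for 8 of the 10 genes, all but Irf1 and Nlrc5, and was the lowest for Nlrc5. Control replicate 2 was the lowest for 7. In the treated group replicate 1 was the highest for Irf1, Irgm1, Irgm2 and Igtp, and the lowest for Nlrc5, Ifi47, Iigp1 and Gbp7. Pearson's r of deviations from the group means, over 9 libraries that share their scaling, was above 0 for 34 of the 45 pairs of genes, with a median of 0.32. The 3 highest values were 0.96 for Igtp and Irgm2, whose spans overlap (0.82 without the 2 libraries farthest from the median), 0.94 for Ifi47 and Gbp3, and 0.91 for Irgm1 and Irgm2. The last 2 pairs were not computed again without such libraries. For Igtp and Irgm1 the value was 0.81, and 0.42 without 2 such libraries. For Nlrc5 against the mean of the other genes it was -0.58, and -0.34 without 2 such libraries. The lowest values of any pair were -0.85 for Nlrc5 and Irgm2 and -0.83 for Nlrc5 and Igtp, which were not computed again either. These values are descriptions of 9 libraries.

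The genes outside the set whose log2 CPM followed the mean profile of the 10 most closely over the 9 libraries were Castor2 (r = 0.958), Lyplal1 (0.942), Apcs (0.932), Ssc4d (0.931), Wee1 (0.927) and Gbp11 (0.927), among genes with a mean of at least 1 CPM. That profile does not stand for each of the 10 alike. Pearson's r of a gene with the mean of the others was 0.88 for Igtp, but 0.37 for Nlrc5, 0.07 for Gbp2, -0.01 for Irf1 and -0.29 for Iigp1. Apcs, which encodes serum amyloid P component, was at 182 ± 103 CPM in control, 461 ± 131 in model and 536 ± 110 in treated libraries (SD, n = 3). Gbp11 was at 27.3 ± 23.6, 71.5 ± 17.8 and 39.0 ± 12.2 CPM, higher in every model library than in every control or treated library.

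Of 21 other GBP and IRG genes, 19 were tested. None passed in model versus control or in treated versus model, and 1, Gm5431, rose in treated versus control (log2 1.63, SE 0.46, adjusted p = 0.0312 in edgeR), from 0.341 ± 0.00518 to 1.06 ± 0.195 CPM. Over all genes tested, 9.36% rose in treated versus control, a share that 1 of 19 does not exceed. The median log2 fold changes of the 19 were 0.48, -0.02 and 0.47. In treated versus model the libraries did not overlap for 1 gene that was higher and 4 that were lower, as for 16.2% and 15.0% of all genes. In treated versus control this held for 6 that were higher and 0 that were lower, as for 19.3% and 18.0%. In model versus control 13 of the 19 log2 fold changes were above 0 and 6 below. For 5 of the 19 every model library lay above every control library, as for 9.71% of all genes. Tgtp1 and Tgtp2, GKS class proteins that are near copies of each other, were among these 5 and are named though neither passed. Their log2 differences were 1.05 (SE 0.25, adjusted p = 0.0810 in edgeR) and 0.91 (SE 0.22, adjusted p = 0.0789).

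Upstream of the 10 genes, Ifng itself was close to the limit of detection. It had 12, 0 and 3 counts in the control libraries, 0, 8 and 0 in the model libraries and 0 in each treated library, where 0 counts allow up to 0.0440 to 0.0472 CPM (3 counts per library, counting error only). The filter on low counts removed it, so it was not tested. Of the 13 tested genes of interferon-gamma signalling, none passed in model versus control, 1 rose and none fell in treated versus model, and 3 rose and 1 fell in treated versus control. The median log2 fold changes were -0.089, 0.13 and 0.21. Over all genes tested, 5.21% rose in treated versus model, and 9.36% rose and 8.47% fell in treated versus control. A count of 1 of 13 is near the first and the last of these shares.

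Ifngr1, the ligand-binding receptor chain, was at 19.3 ± 0.972 CPM in control, 19.2 ± 1.21 in model and 29.2 ± 3.07 in treated libraries (SD, n = 3). It rose by 0.60 on the log2 scale in treated versus model (SE 0.11, adjusted p = 0.00853 in edgeR) and in treated versus control (SE 0.11, adjusted p = 0.00470). Ifngr2 was at 15.3 ± 0.577, 20.3 ± 2.98 and 18.3 ± 2.91 CPM, Jak1 at 72.8 ± 2.00, 67.2 ± 2.88 and 73.0 ± 5.76 CPM and Jak2 at 13.9 ± 1.94, 11.6 ± 2.00 and 13.2 ± 1.33 CPM, and none of these passed in any comparison. Irf8, a myeloid factor of the Irf1 family, rose by 1.24 in treated versus control (SE 0.19, adjusted p = 0.00167), and Irf9, which also binds the ISRE, by 0.53 (SE 0.13, adjusted p = 0.0159). Irf2, which competes with Irf1 for its sites, fell by 0.72 (SE 0.12, adjusted p = 0.00263). Socs1, a feedback inhibitor of the Jak kinases, stayed under 1 CPM, at 0.231 ± 0.205, 0.377 ± 0.231 and 0.496 ± 0.245 CPM, and passed nowhere.

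Among 19 other interferon-gamma targets, 2 rose in model versus control, 4 rose and 2 fell in treated versus model, and 8 rose in treated versus control. Their median log2 fold changes were 0.53, 0.25 and 0.63. Over all genes tested, 0.519%, 5.21% and 9.36% rose in these comparisons, and 4.44% fell in treated versus model. Psme1, a proteasome activator subunit, rose by 0.65 in model versus control (SE 0.11, adjusted p = 0.0209 in edgeR), and Icam1, an adhesion molecule, by 0.87 (SE 0.14, adjusted p = 0.0184). In treated versus model, Dtx3l, a ubiquitin ligase, and the chemokine gene Cxcl11 fell by 0.62 (SE 0.12, adjusted p = 0.00920) and 1.08 (SE 0.26, adjusted p = 0.0283) on the log2 scale. Dtx3l was at 25.6, 25.8 and 27.1 CPM in control, 38.4, 37.3 and 39.5 CPM in model and 24.2, 29.2 and 21.4 CPM in treated libraries. Another chemokine gene, Cxcl10, rose by 2.39 in treated versus model (SE 0.46, adjusted p = 0.0125), from 3.24, 4.50 and 1.80 CPM to 22.7, 20.5 and 6.86 CPM, and Icam1 rose by 0.61 (SE 0.14, adjusted p = 0.0230). Ciita, the class II counterpart of Nlrc5, was at 1.29 ± 0.387, 1.96 ± 0.467 and 1.39 ± 0.669 CPM and passed in no comparison. Of the 6 MHC class II genes it acts on, none passed in model versus control, 2 rose in treated versus model and 3 in treated versus control. Over all genes tested, 5.21% rose in treated versus model and 9.36% in treated versus control. Cd74, the invariant chain, rose by 1.03 in treated versus model (SE 0.21, adjusted p = 0.0160) and H2-Ab1, a class II chain, by 1.48 (SE 0.28, adjusted p = 0.0111).

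Of the 25 genes of the type I interferon list, 1 rose in model versus control, 9 in treated versus model and 18 in treated versus control, and none fell. Their median log2 fold changes were 0.45, 0.94 and 1.53, while those of the 10 genes were 0.42, -0.17 and 0.29. Over all genes tested, 0.519%, 5.21% and 9.36% rose in these comparisons. In model versus control Zbp1, a sensor of nucleic acids, rose by 1.68 (SE 0.30, adjusted p = 0.0286 in edgeR). Oas1a and Usp18 rose in treated versus model by 2.30 (SE 0.32, adjusted p = 0.00173) and 1.23 (SE 0.23, adjusted p = 0.00898). Of the 12 macrophage markers, 2 rose in model versus control, 2 in treated versus model and 3 in treated versus control. For all genes the shares were again 0.519%, 5.21% and 9.36%. Cd68 was at 7.49 ± 0.210, 15.0 ± 4.41 and 54.3 ± 7.05 CPM and Mpeg1 at 28.9 ± 1.95, 52.2 ± 4.41 and 183 ± 25.8 CPM in control, model and treated libraries (SD, n = 3). Marco was at 2.84 ± 0.963, 11.4 ± 1.11 and 17.6 ± 11.4 CPM. Some others of the 12 passed in no comparison, among them Timd4 at 7.90 ± 2.55, 6.05 ± 0.774 and 5.85 ± 2.63 CPM, Adgre1 at 5.58 ± 1.20, 4.30 ± 0.138 and 6.04 ± 0.603 CPM and Clec4f at 102 ± 29.2, 119 ± 16.7 and 112 ± 51.9 CPM. The part of macrophages in these results was not tested.

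**Figure D4:**
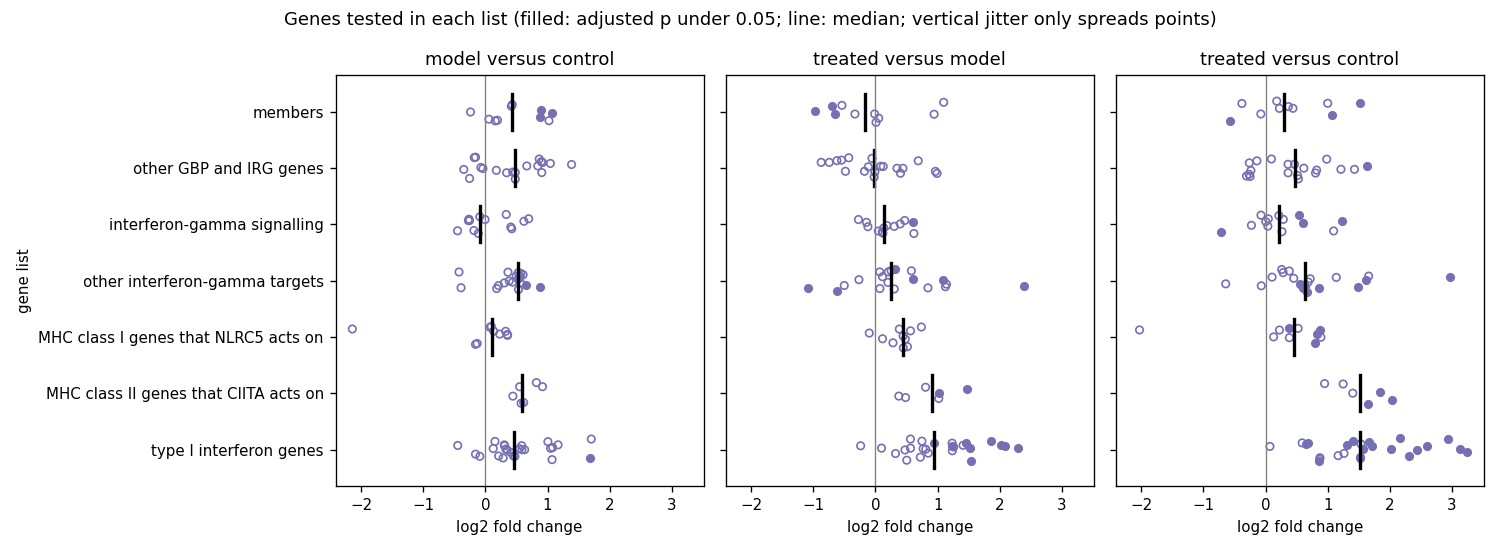
Log2 fold change (x axis) of each tested gene in the 10 genes, pooled in a single row, and in the other lists (y axis), for the 3 comparisons. Filled points mark an adjusted p under 0.05 over all genes tested, and a line marks each list's median. The median of the type I interferon list is 0.45, 0.94 and 1.53 from the first to the last comparison.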

How the data were processed

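Gene-level estimated counts and FPKM of genes and transcripts were deposited by the authors for all 9 libraries. Reads were aligned with HISAT2, per the submitters' processing notes. For the quantifier, its annotation and its strand setting, the entry is: not given in the sources used here. By the deposited tables themselves, 99.993% of gene counts were exactly equal to summed transcript counts. Gene spans matched GENCODE M21 (GRCm38) for 25083 of 27945 genes. The counts were rounded to whole numbers and tested with edgeR 4.0.16 (R 4.3.3): filterByExpr (minimum count 10), TMM scaling, 1 quasi-likelihood fit over the 3 groups without covariates, Benjamini-Hochberg adjustment over the 18113 genes tested, and calls at an adjusted p under 0.05. CPM values use the TMM-scaled library sizes. FPKM were used as deposited, for levels between genes within a group.

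The 10 genes were named whatever their test, with at most 4 genes called per list and comparison by smallest p, fixed signalling genes, and the 6 genes most like the mean profile. The members and lists were chosen with earlier results of these data known. A single gene of the signalling list is not reported here. The fit was also tested on simulated data with known changes. The 18 alternatives were other scalings (RLE, upper quartile, library totals alone), 2 other filters on low counts, DESeq2 1.42.0, limma-voom (limma 3.58.1), the replicate number as a block, the 2 groups alone and leaving out each library.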

Additional observations from a re-analysis of the deposited data

How the results depend on the processing

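Of 540 values of the 10 genes under the alternatives, 459 kept their direction and side of the threshold, 33 lost a call, 27 gained one and 21 changed sign, all of the last without a call. The cause of these changes was not tested. The number of genes that rose in model versus control, 3 as reported, was 0 to 4 when 1 library was left out. Under the other settings it was 2 to 4. Igtp was added by DESeq2, limma-voom and the replicate block, and Irgm2 was lost with library totals alone. In treated versus model the number that rose, 0 as reported, was 1 with library totals alone, 2 with DESeq2, 1 with limma-voom, 1 with the 2 groups alone and 0 to 1 when 1 library was left out, and the number that fell, 3 as reported, was 4 with upper-quartile scaling and with DESeq2, which both add Irf1, 2 with library totals alone, and 1 to 3 when 1 library was left out. In treated versus control the number that rose, 2 as reported, was 4 with library totals alone, 4 with DESeq2 and 1 to 3 when 1 library was left out. Under all settings other than leaving out a library it was 2 to 4. Gbp2 was also added by the other filters on low counts, limma-voom and the 2 groups alone. The number that fell, 1 as reported, was 0 with library totals alone, 0 with the 2 groups alone and 0 to 1 when 1 library was left out. Library totals alone shifted the median of all genes by 0.17 in treated versus model and 0.20 in treated versus control, and split all calls there 1638 higher and 408 lower (943 and 805 as reported) and 3021 and 819 (1696 and 1535). Upper-quartile scaling split them 888 and 939, and 1558 and 1686. DESeq2 called 444 genes higher and 427 lower in model versus control, against 94 and 108, and 1423 and 1319 in treated versus model. Leaving out 1 library gave 28 to 112 higher and 26 to 119 lower, 525 to 915 and 357 to 745, and 1170 to 1631 and 999 to 1394 over the 3 comparisons in that order.

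In model versus control Gbp2 gave -0.033 with limma-voom. In treated versus model Irgm1 gave -0.021 with upper-quartile scaling and Gbp7 0.15 with library totals alone, and in treated versus control Irgm2 gave 0.13 there. When 1 library was left out the values ran from -0.012 to 0.31 for Irf1, -0.39 to 0.29 for Gbp2 and -0.010 to 0.54 for Gbp7 in model versus control; from -0.12 to 0.12 for Irgm1, -0.13 to 0.14 for Igtp and -0.16 to 0.078 for Gbp7 in treated versus model; from -0.23 to 0.15 for Irgm2 and -0.024 to 0.53 for Gbp7 in treated versus control.

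Same-numbered libraries of different groups did not deviate together (correlations from -0.076 to 0.072), so the numbers were not taken as pairs. With the replicate block, 4 genes rose in model versus control, 3 fell in treated versus model, and 2 rose and 0 fell in treated versus control, and Irgm1 and Gbp7 gave -0.0053 and 0.0060 in treated versus model. Over all genes the block called 61 higher and 59 lower in model versus control. Gbp2 and Gbp3 had the fewest reads of the 10 genes, and no setting varied the depth.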
